A study of Mus musculus with 9 samples.

Results

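The Myc, Max and Mxd network is a family of basic helix-loop-helix leucine zipper transcription factors, and 9 of its genes were followed here in hair follicle bulge stem cells under dietary restriction. They were chosen by name: Myc, Mycn, Max, Mxd1, Mxd3, Mxd4, Mxi1, Mnt and Mga. All 9 were found among the 35006 gene symbols of the count tables, and all 9 passed the filter on low counts that left 15447 genes to test. The DR group was 4 libraries from C57BL/6J mice on dietary restriction, given each day 70% of the food that mice of like weight and sex ate without limit. The AL group was 5 libraries from C57BL/6J mice fed ad libitum. All mice were housed singly, and the sorted CD34+ alpha6+ cells of 3 mice were pooled for a group. The labels name more than 1 animal supplier and facility and do not say which libraries came from which. The labels carry no transgene and state no age, irradiation, hair cycle stage or hour of sampling. They do not say whether each library came from its own pool, so p-values measure the spread between these libraries, which may be partly technical.

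Max is the shared partner of the network. Myc and its relative Mycn bind DNA as pairs with Max at the sequence called the E-box and switch on genes of growth, ribosome making and the cell cycle. The Mxd proteins, Mxi1 and Mnt pair with Max at the same sites and recruit the Sin3 corepressor, and Mga, which also carries a T-box, brings Max into a Polycomb complex. In mouse epidermis, forced Myc activity is known to push stem cells out of their niche and towards division and differentiation. Most Mxd genes are known to rise when cells stop dividing. Mxd3 is the known exception, being transcribed in dividing cells around S phase.

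Promoter windows were searched for 8 of the 9 members, all but Myc, as 10 windows of 250 bases before and 50 after a RefSeq start site (build GRCm38.p6). They are shown because they differ in the motifs that link this network to itself and to the cell cycle. Capitals mark motif matches, and each stretch reads 5′ to 3′ on the strand of its gene. The first pair are the members whose transcripts fell, Mycn (chr12:12941847-12942046, minus strand) and Mxd3 (chr13:55329732-55329881, minus strand).
Mycn: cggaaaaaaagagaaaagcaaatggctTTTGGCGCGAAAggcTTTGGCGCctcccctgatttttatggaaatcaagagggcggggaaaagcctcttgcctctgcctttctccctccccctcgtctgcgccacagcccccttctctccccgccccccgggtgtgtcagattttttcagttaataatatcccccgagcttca
Mxd3: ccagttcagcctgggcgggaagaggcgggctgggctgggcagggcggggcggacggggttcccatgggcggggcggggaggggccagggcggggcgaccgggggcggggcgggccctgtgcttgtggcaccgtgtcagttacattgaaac
Next come the 3 of the 8 searched members with an E-box, Max (chr12:76962234-76962263, minus strand), Mxd4 (chr5:34187912-34187941, minus strand) and Mnt (chr11:74830789-74830818, plus strand), and then Mxi1 (chr19:53329452-53329481, plus strand) with a FoxO site.
Max: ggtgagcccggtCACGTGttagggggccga
Mxd4: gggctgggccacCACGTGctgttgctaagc
Mnt: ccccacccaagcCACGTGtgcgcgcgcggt
Mxi1: tcgcgcggagaaGTAAACAaaccgcgcgcg

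Both strands were searched for 5 forms: the E-box CACGTG, the E2F sites TTTGGCGC, TTTCCCGC and TTTCGCGC, and the FoxO site GTAAACA. Of the 8 members searched, only Mycn had an E2F form. Its window held TTTGGCGC 183 and 168 bases before the start, and on the other strand TTTCGCGC 179 bases before it, overlapping the first. Some E2F form occurred in 1.84% of all 32851 windows. E2F factors are known to bind the MYCN promoter in human neuroblastoma cells. The window of Mxd3 held none of the 5 forms. Other E2F variants were not searched, so this does not show that Mxd3 lacks an E2F site. CACGTG began 3 bases before the start of Max and ran across it. In Mxd4 it began 219 bases before the start and in Mnt 123, and it occurred in 7.15% of all windows. GTAAACA, found in 3.65% of all windows, lay 231 bases before the most downstream of 3 Mxi1 starts. MXI1 is a known target of the fasting-responsive factor FOXO3 in human cells. A match describes the letters only.

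Libraries held 26119459 to 33559312 gene counts. Of all tested genes, 40.7% passed edgeR's quasi-likelihood test at an adjusted p of 0.05 (19.0% higher and 21.7% lower in DR). Among the 9 members 6 passed (66.7%, a larger share than over all genes, with no test of the set), 4 higher in DR (Myc, Max, Mxd1 and Mxi1) and 2 lower (Mycn and Mxd3). Mxd4, Mnt and Mga did not pass. All DR libraries lay on one side of all AL libraries for Max, Mxi1 and Mxd3, which is 3 of 9, a share near the 32.9% of all tested genes (15.9% with DR above AL and 17.0% below). The 15 listed markers of cycling cells, such as Mki67 and Top2a, moved with the diet too, with 13 lower and none higher (median log2 fold change -4.01). Their summed level was 201 to 231 CPM (gene counts scaled to a library total by TMM, on the per-million scale) in DR libraries, against 671 to 1178 in AL replicates 1 to 4 and 288.5 in AL replicate 5. In this sum AL replicate 5 was therefore the AL library nearest to DR. Pcna and Mcm6, which did not pass, were the largest parts of the sum in DR (89.1 and 63.3 CPM on average). For 12 of the 15 markers every DR library was below every AL library, while Mcm5, Mcm6 and Pcna overlapped. Mki67, for example, stood at 6.47 to 15.4 CPM in DR and at 36.7 CPM or more in AL. In sorted bulk RNA, fewer dividing cells and less transcript per cell cannot be told apart. All 10 listed bulge markers were detected, with a summed level of 20840 to 22280 CPM in DR and 27560 to 38490 in AL. These sums, mostly Krt15, Krt5 and Krt14, did not overlap. All 10 log2 fold changes were below 0, and 6 genes passed. Among them was the sort marker gene Cd34 (479 ± 102 CPM in DR, 1083 ± 579 in AL, -1.18, edgeR adjusted p = 0.016), while Itga6, the alpha6 gene, did not pass (-0.12). Of the other cell types, 7 fibroblast markers summed to 19.99 to 40.6 CPM in DR and 74.0 to 123 in AL, and of 4 tested 1 rose and 2 fell. The summed level of 7 melanocyte markers was 125 to 176 CPM in DR and 112 to 231 in AL, and 3 of 5 tested fell. Most of that sum was Mitf (139 CPM on average in DR and 149 in AL), which did not pass. The 3 that fell were low, with AL means of 7.24 CPM for Dct, 0.997 for Tyrp1 and 0.626 for Kit. Dct and Kit did not overlap between the diets, while Tyrp1 did. Endothelial markers summed to 4.64 to 39.2 CPM in DR and 2.22 to 18.7 in AL, and immune markers to 6.43 to 39.6 in DR and 2.22 to 31.9 in AL, with none called. Suprabasal markers (2227 to 5540 CPM in DR, 2004 to 4734 in AL, 1 of 6 higher), hair matrix markers (189 to 226 in DR, 188 to 223 in AL, none called) and sebaceous gland markers (46.8 to 56.3 in DR, 52.1 to 67.3 in AL, 1 of 2 tested lower) overlapped between the diets. No marker was at 0 in all libraries, and the part of other cells in the results was not tested.

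**Figure D1:**
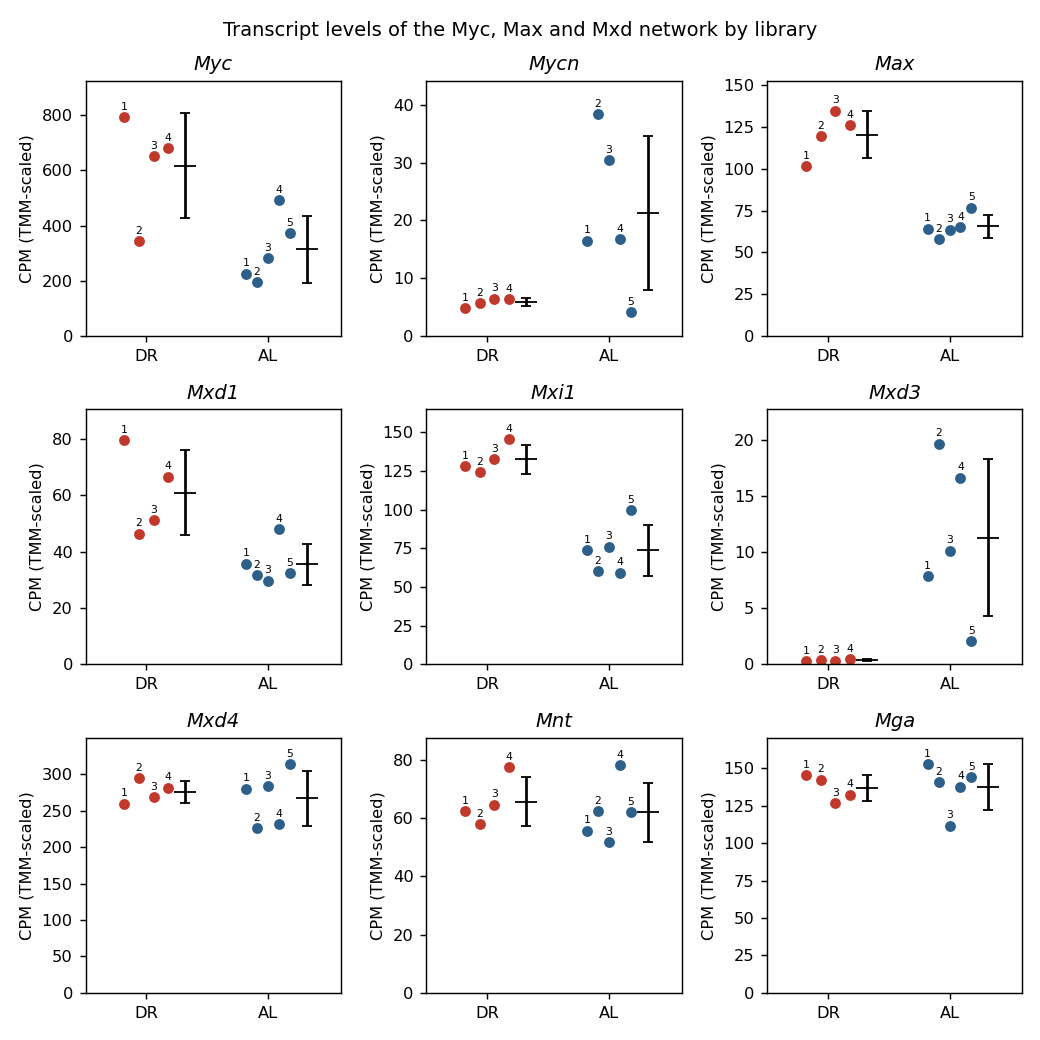
Level of each member in CPM after TMM scaling, linear axes from 0, with 1 point per library numbered by replicate (DR left, AL right) and the mean with its SD beside them. Mxd3 lay at 0.288 to 0.484 CPM in DR and 2.11 to 19.7 CPM in AL, while the points of Mxd4, Mnt and Mga overlap.

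The activators moved in opposite directions. Myc, the founding member, stood at 793, 345, 652 and 681 CPM in DR replicates 1 to 4, against 226, 195.5, 283, 491.5 and 372 CPM in AL replicates 1 to 5. DR replicate 2 was the low one of its group and lay below AL replicates 4 and 5, so the groups overlapped. On average Myc stood at 618 ± 192 CPM in DR and 314 ± 120 CPM in AL (SD, n = 4 and 5), a log2 fold change of 0.98 (SE 0.29, edgeR adjusted p = 0.0200). All 4 DR libraries were above the AL mean. With DR replicate 1 left out, Myc no longer passed (0.84, adjusted p = 0.056), nor did it with DR replicate 4 left out (0.93, adjusted p = 0.055). With DR replicate 2 left out, its log2 fold change was 1.18 (adjusted p = 0.0071).

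Mycn, the paralog best known from the embryo and from neuroblastoma, was a minor transcript in these cells. It stood at 4.89, 5.72, 6.46 and 6.35 CPM in DR, against 16.5, 38.4, 30.5, 16.8 and 4.10 CPM in AL. The DR libraries were alike, AL replicates 1 to 4 were all higher, and AL replicate 5 was below every DR library. Mycn averaged 5.86 ± 0.72 CPM in DR and 21.3 ± 13.4 CPM in AL, a log2 fold change of -1.86 (SE 0.49, edgeR adjusted p = 0.0106). Without AL replicate 5 it was -2.13 (SE 0.27, adjusted p = 0.00016), and in limma-voom the call was lost (-1.58, adjusted p = 0.063). The AL libraries spanned 9.36-fold for Mycn and the DR libraries 1.32-fold. Levels per kb of exon put Myc at 69.2 to 186 times Mycn in DR, at 5.83 to 33.5 times in AL replicates 1 to 4 and at 104 times in AL replicate 5.

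Max, the partner through which Myc and Mycn bind DNA, was higher in every DR library. It stood at 102, 120, 135 and 126 CPM in DR, against 64.3, 58.2, 63.7, 65.3 and 76.8 CPM in AL. The groups did not overlap, and both were tight (CV 11.7% in DR and 10.4% in AL). Max averaged 121 ± 14.1 CPM in DR and 65.6 ± 6.83 CPM in AL, with a log2 fold change of 0.88 (SE 0.10, edgeR adjusted p = 1.4e-04), a 1.84-fold higher level.

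Of the repressor genes, Mxd1 and Mxi1 rose. Mxi1, a tumour-suppressor candidate that opposes Myc, stood at 128, 124, 132 and 145 CPM in DR, against 73.8, 60.0, 76.1, 59.2 and 99.5 CPM in AL. The groups did not overlap, and the AL library nearest to DR was again replicate 5. Mxi1 averaged 132 ± 9.24 CPM in DR and 73.7 ± 16.3 CPM in AL, and its log2 fold change was 0.84 (SE 0.14, edgeR adjusted p = 0.0010), and 0.98 without AL replicate 5. Mxd1, which is known to rise as keratinocytes differentiate, stood at 79.6, 46.4, 51.2 and 66.6 CPM in DR, against 35.8, 31.7, 29.7, 47.9 and 32.4 CPM in AL. Only AL replicate 4 reached into the DR range, just above DR replicate 2. Mxd1 averaged 61.0 ± 15.1 CPM in DR and 35.5 ± 7.27 CPM in AL, 0.78 higher in DR on the log2 scale (SE 0.18, edgeR adjusted p = 0.0053). DR replicates 1 and 2 and AL replicate 4 held the same places for Mxd1 as for Myc, being highest and lowest of DR and highest of AL.

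Mxd3 showed the largest fold of the network, with 22 of the 15447 tested genes further from 0. That place is a description only, because Mxd3 was near the floor in DR and passed the low-count filter through its AL libraries. Its raw counts were 8, 12, 9 and 15 in DR, against 219, 725, 303, 486 and 56 in AL. That is 0.288, 0.359, 0.338 and 0.484 CPM in DR, against 7.91, 19.7, 10.2, 16.7 and 2.11 CPM in AL. Every DR library was below every AL library, and AL replicate 5 was the lowest of AL. Mxd3 averaged 0.367 ± 0.083 CPM in DR and 11.3 ± 7.02 CPM in AL, a fall of 30.4-fold (-4.93 on the log2 scale, SE 0.62, edgeR adjusted p = 2.0e-04). With AL replicate 5 left out it was -5.19. Mxd3 shares 105 exon bases with Prelid1 on the other strand, in the GENCODE M21 annotation. The library kit does not mark strand, so reads there cannot be given to either gene.

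Mxd4, Mnt and Mga did not pass, and for each the DR and AL libraries overlapped. Mxd4, the repressor gene with the highest level here, averaged 276 ± 15.1 CPM in DR and 267 ± 37.3 CPM in AL, a log2 fold change of 0.05 (95% interval -0.17 to 0.27, edgeR adjusted p = 0.76). Part of its exons (13.2%) lies under an antisense gene. Mnt, a widely expressed repressor, averaged 65.6 ± 8.36 CPM in DR and 62.0 ± 10.1 CPM in AL (0.08, interval -0.17 to 0.33, adjusted p = 0.63). Mga averaged 137 ± 8.60 CPM in DR and 137 ± 15.4 CPM in AL (-0.01, interval -0.20 to 0.19, adjusted p = 0.97). These intervals leave out changes as large as those fitted for Myc, Max, Mxd1 and Mxi1.

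**Figure D2:**
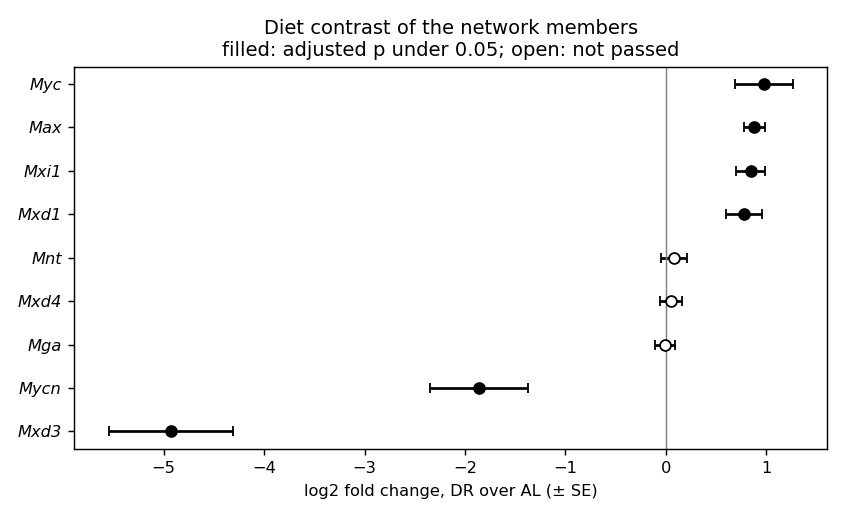
Log2 fold change of each member, DR over AL, with its SE; filled points passed the test and open points did not. Myc, Max, Mxi1 and Mxd1 lie between 0.78 and 0.98, Mnt, Mxd4 and Mga at 0.08 to -0.01, and Mycn and Mxd3 at -1.86 and -4.93.

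Levels of different genes were compared per kb of exon, with GENCODE M21 exon lengths. In DR the order was Myc (252 ± 78.3 CPM per kb), Mxd4 (71.1 ± 3.90), Max (61.6 ± 7.20), Mxi1 (19.9 ± 1.39), Mnt (14.3 ± 1.82), Mxd1 (13.1 ± 3.24), Mga (9.82 ± 0.62), Mycn (2.09 ± 0.26) and Mxd3 (0.277 ± 0.063). The ranges of Mxd4 and Max, of Mnt and Mxd1, and of Mxd1 and Mga overlapped, while the other neighbours were apart. In AL the order was Myc (128 ± 49.0 CPM per kb), Mxd4 (68.7 ± 9.60), Max (33.5 ± 3.49), Mnt (13.5 ± 2.20), Mxi1 (11.1 ± 2.46), Mga (9.86 ± 1.103), Mxd3 (8.53 ± 5.29), Mxd1 (7.60 ± 1.56) and Mycn (7.59 ± 4.77). There, Mxd4 and Max, and Max and Mnt, were apart, and all other neighbours overlapped. Myc was nonetheless above Mxd4 in all 5 AL libraries. On average Mxd3 thus lay among the other low repressor genes in AL and below all other members in DR. In AL replicates 1 and 5, however, it was the lowest repressor gene, at 5.96 and 1.59 CPM per kb.

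As a share of the summed level of the 9 genes per kb, Myc held 64.2%, 42.5%, 57.8% and 58.0% in DR, against 36.8%, 33.9%, 41.8%, 56.0% and 47.4% in AL. The groups overlapped through DR replicate 2 and AL replicates 4 and 5. The sum of Mxd1, Mxd3, Mxd4 and Mxi1 per kb was 100 to 109 CPM in DR and 88.9 to 104 CPM in AL. The ranges of these sums overlapped. Within them, Mxi1 held 17.8% to 20.02% in DR and 9.74% to 14.4% in AL, and Mxd3 held 0.210% to 0.334% in DR and 1.52% to 16.7% in AL. Myc and Mycn together stood at 1.12 to 2.56 times the summed level of the 6 repressor genes in DR, and at 0.820 to 1.75 times it in AL. Against Max alone they stood at 2.34 to 6.28 times in DR and 3.00 to 6.21 times in AL. These ratios are descriptions of RNA, with no test.

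**Figure D3:**
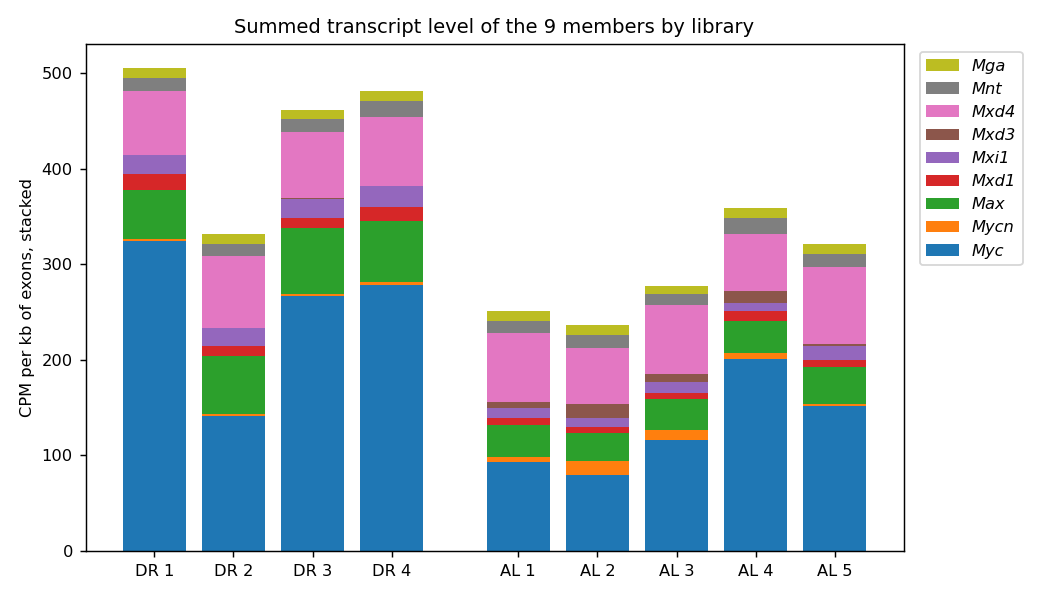
Level of each member per kb of exon (CPM per kb), stacked by library, DR left and AL right. Myc forms 42.5% to 64.2% of the DR bars and 33.9% to 56.0% of the AL bars, and Mxd4 is the largest repressor segment in every library.

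The markers of cycling cells were set beside Mxd3, Mycn and Myc library by library. AL replicate 2 had the highest summed cycling level (1178 CPM) and the highest Mxd3 (19.7 CPM) and Mycn (38.4 CPM), and AL replicate 5 had the lowest of AL in all 3. AL replicate 4, at 1046 CPM of cycling markers, had 16.7 CPM of Mxd3 and 16.8 CPM of Mycn, so Mycn did not follow the cycling level there. Myc had no such order within AL: AL replicate 4 was highest at 491.5 CPM and AL replicate 2 lowest at 195.5 CPM, and these had the highest cycling levels. The part of cycling cells in the diet contrast was not tested. Without AL replicate 5 the folds of Mxd3 and Mycn were larger.

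**Figure D4:**
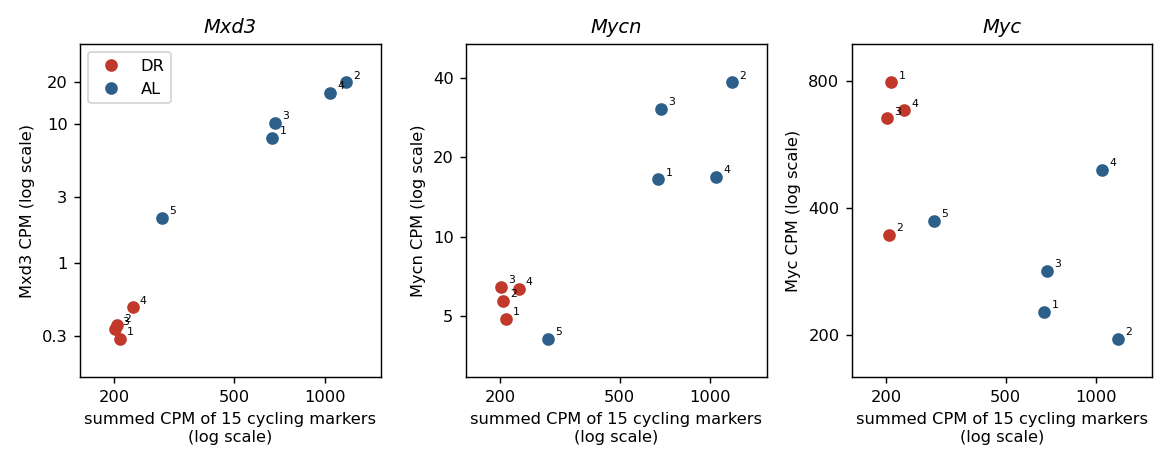
Mxd3, Mycn and Myc (CPM) against the summed CPM of 15 cycling markers, 1 point per library numbered by replicate, both axes on log scales. DR libraries sit at 201 to 231 CPM of cycling markers, AL replicate 5 at 288.5 and the other AL libraries at 671 to 1178. Pcna and Mcm6, which did not pass, are the largest parts of the sum in DR.

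Genes with the most similar profile were named for each changed member by the distance between log2 CPM profiles over the 9 libraries, each centred on its own mean. The profiles include the diet difference, so genes with a like diet fold lie close. Profile SDs differed (2.49 log2 units for Mxd3, 1.20 for Mycn and 0.48 for Max), so distances are not comparable between members. Nearest to Mxd3 were Spc24 (root-mean-square distance 0.19 log2 units), Ska1 (0.30) and Ube2c (0.35). In DR these genes averaged 0.394, 0.0900 and 0.629 CPM, near the floor like Mxd3. All 3 are genes of mitosis, Spc24 and Ska1 encoding kinetochore proteins and Ube2c a ubiquitin-conjugating enzyme of mitotic exit. Nearest to Myc were the atypical cyclin gene Ccno (0.13), the small Maf gene Maff (0.18) and Klf5 (0.20), a Kruppel-like factor of proliferating epithelia. Ccno stood at 30.4 CPM in DR and 15.1 in AL. Nearest to Mycn were the desaturase gene Scd2 (0.31), Cilp (0.31) and Endou (0.31), nearest to Max the creatine transporter gene Slc6a8 (0.05), Rnf103 (0.07) and the periplakin gene Ppl (0.08). Nearest to Mxi1 were Tprgl (0.05), the lysosomal transporter gene Slc17a5 (0.08) and Maf1 (0.08), a repressor of RNA polymerase III. Nearest to Mxd1 were Prdm4 (0.13), Pcf11 (0.13) and Polr2a (0.13). Among members, Max and Mxi1 were closest (0.16).

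The wider network also holds the third Myc paralog, Mycl, and a glucose-sensing branch that pairs with Mlx in place of Max (Mlx, Mlxip and Mlxipl). Of these 4 genes 2 rose and none fell. That share of 50% stands beside 40.7% of all tested genes called and 19.0% higher, but it rests on few genes and was not tested. Mlxipl, which encodes ChREBP, averaged 16.5 ± 2.77 CPM in DR and 8.62 ± 0.99 CPM in AL (0.94 on the log2 scale, SE 0.14, edgeR adjusted p = 5.0e-04), and its groups did not overlap. Mlxip, which encodes MondoA, averaged 229 ± 27.5 CPM in DR and 162 ± 27.6 CPM in AL (0.50, adjusted p = 0.0136). Mlx (-0.06) and Mycl (0.25, listed as Mycl1) did not pass.

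Partners through which the network acts moved both ways, as did tested genes in general (19.0% higher and 21.7% lower). Of 18 cofactors of Myc activation, 6 rose and 3 fell (median log2 fold change 0.07, against -0.02 over all tested genes). The acetyltransferase genes Ep300 (0.63) and Crebbp (0.57) rose, while Kat2a (-0.73), the acetyltransferase subunit of SAGA-type complexes, and Smarcb1 (-0.82), a SWI/SNF subunit that binds Myc, fell. Among 20 genes of Sin3 and other corepressors, 7 rose and 4 fell (median 0.06). Brms1 (0.74), Arid4a (0.65) and Arid4b (0.57), subunits of Sin3 complexes, rose, and Brms1l fell by 0.67 on the log2 scale. For the Polycomb complex that holds Mga, 2 of 14 genes rose and 4 fell (median -0.06). The DP partners of E2F moved apart there, Tfdp2 averaging 146 ± 34.2 CPM in DR and 47.8 ± 6.64 CPM in AL (1.61, SE 0.15, edgeR adjusted p = 4.3e-05) and Tfdp1 averaging 22.7 ± 1.37 CPM in DR and 38.7 ± 7.96 CPM in AL (-0.77). Cbx1 (-0.57) fell and Rnf2 (0.48) rose. The number called was 9 of 18 (50%), 11 of 20 (55%) and 6 of 14 (42.9%), beside 40.7% of all tested genes.

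Of 19 genes that set the lifetime of Myc protein, none rose and 6 fell (median -0.25). The share called, 31.6% and all lower, was below the 40.7% of all tested genes called but above the 21.7% called lower. Plk1 (-3.04), Cip2a (-2.17, listed as C330027C09Rik) and Aurka (-2.09), known to stabilise Myc or Mycn protein, and Set (-0.49), an inhibitor of the phosphatase PP2A, had the smallest p. Plk1 is also one of the cycling markers, and Aurka is a mitotic kinase. Fbxw7, the ubiquitin ligase subunit that marks Myc for destruction, averaged 41.5 ± 4.39 CPM in DR and 44.2 ± 5.70 CPM in AL and did not pass (-0.09, edgeR adjusted p = 0.54).

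Textbook targets of Myc were listed as 2 groups. Of 35 ribosome-making genes none rose and 10 fell (median -0.11), and the share called, 28.6%, was below the 40.7% of all tested genes, of which 21.7% were lower. Tcof1, a nucleolar factor of rRNA transcription, averaged 52.4 ± 8.93 CPM in DR and 96.4 ± 13.2 CPM in AL (log2 fold change -0.88, SE 0.14, edgeR adjusted p = 6.8e-04). Dkc1 (-0.73), Bysl (-1.03) and Nop16 (-0.59) also fell. Nucleolin (Ncl, -0.08) and nucleophosmin (Npm1, -0.21), classical targets chosen here after their values were seen, did not pass. Of 38 targets in metabolism and growth, Bcat1 was listed at 0 in all libraries. Among the other 37, 4 rose and 17 fell (median -0.37), and the share called, 56.8%, was above that of all tested genes. Cdk4 averaged 69.6 ± 3.85 CPM in DR and 152 ± 29.7 CPM in AL (-1.13, SE 0.14, adjusted p = 1.8e-04), and the enolase gene Eno1 fell by 1.64 on the log2 scale. Mthfd1, a folate-cycle enzyme gene, averaged 192 ± 21.1 CPM in DR and 100.2 ± 9.69 CPM in AL (0.94, adjusted p = 9.0e-05), and Tfap4 (listed as Tcfap4), a transcription factor gene induced by Myc, rose by 1.12. The cycling markers fell in the same libraries, and their part in these counts was not tested.

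Of 12 genes that Myc is known to hold down, 1 rose and none fell (median -0.01), so that 8.33% were called, beside 40.7% of all tested genes. Ndrg2, one of the N-myc downstream regulated genes, averaged 288 ± 23.9 CPM in DR and 159 ± 20.9 CPM in AL (0.86 on the log2 scale, SE 0.11, edgeR adjusted p = 2.2e-04). Itgb1 (-0.25, adjusted p = 0.082), Cdkn1a (0.72, adjusted p = 0.092) and Cebpa (0.41, adjusted p = 0.12) did not reach the threshold. Cdkn1a reached it with AL replicate 5 left out (0.93, adjusted p = 0.031), and stayed short of it in 15 of 20 alternatives. All lists were chosen with earlier results of these data known, and their counts carry no test of the list.

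**Figure D5:**
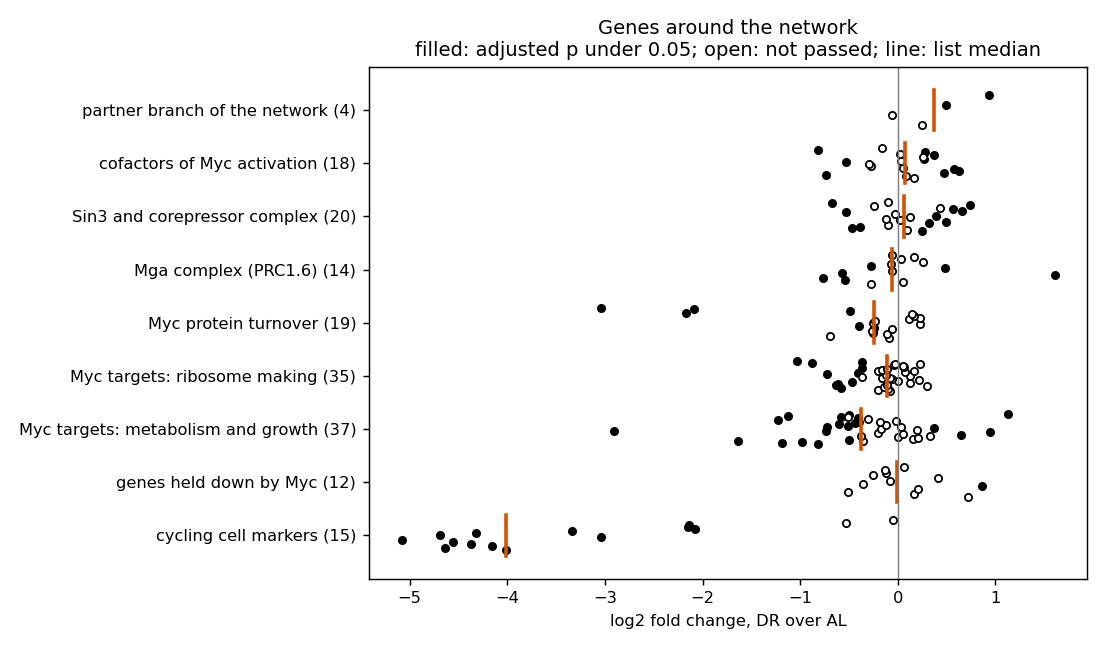
Log2 fold change, DR over AL, of each tested gene in 9 lists around the network (number of genes in brackets), filled where it passed the test, with the list median as a line. The cycling markers sit at a median of -4.01 and the metabolism targets at -0.37, while the cofactor lists lie on both sides of 0.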

How the data were processed

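RNA of sorted CD34+ alpha6+ cells was sequenced as single reads of 51 cycles from TruSeq RNA v2 libraries, which do not mark strand. The deposited values are whole-number read counts per gene symbol, 1 table per library, with no normalization by the authors. The submitters' processing notes name HTSeq 0.11.2, TopHat2 2.1.0, FastQC 0.11.5 and Bowtie, and build mm9. Which annotation, strand setting and rule for reads with several hits were used is not given in the sources used here. There were 6 lines per library that name no gene; they held 25.9% to 30.7% of reads and were left out.

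Genes were filtered with filterByExpr, scaled by TMM and tested with a quasi-likelihood fit on diet over all 9 libraries (R 4.3.3, edgeR 4.0.16), with Benjamini-Hochberg adjustment over the 15447 tested genes, with a threshold of 0.05. Fold changes are DR over AL, SEs are those implied by the F statistic, and 95% intervals are 1.96 SEs to each side. Levels are CPM after TMM, as mean ± SD. The test was checked on simulated counts in which far fewer genes were changed than were called here. That check does not cover a contrast this broad. No library was a copy of another: within groups, the chi-square of pairs divided by its degrees of freedom was 26.4 to 118. Levels per kb use merged exons of GENCODE M21, of another build than the files, for lengths and overlaps only. RefSeq tables (GRCm38.p6) gave names, 4 list symbols being found under an older one, and promoter sequences.

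Alternatives were other scalings (upper-quartile, library size only, DESeq2 1.42.0 size factors), a stricter filter (1 CPM in 4 libraries) or none, other tests (limma 3.58.1 voom with and without quality weights, the DESeq2 Wald test), a replicate block, robust dispersion, 1 surrogate variable from sva 3.50.0, thresholds of 0.01 and 0.10, and leaving out each library. The text names all members, the 4 genes of each list with the smallest p, and the 3 nearest profiles of each changed member, skipping symbols without a descriptive name. Members and lists were chosen with earlier results of these data known. Ncl, Npm1 and Fbxw7 were named after their values were seen.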

Additional observations from a re-analysis of the deposited data

How the results depend on the processing

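Across 20 alternatives for each member, Max, Mxi1, Mxd1 and Mxd3 kept their direction and their call, and Mxd4, Mnt and Mga never passed. The log2 fold change of Myc ran from 0.84 to 1.20 without single libraries, and its call was lost without DR replicate 1 or 4. Mycn ran from -2.13 to -1.52 in the same way and lost its call in limma-voom (-1.58). The number of changed members was 5 or 6 without single libraries, 4 at a threshold of 0.01 and 6 at 0.10. At 0.01, 3937 genes passed in place of 6290, with 1 of the 4 genes of Mycl and the Mlx branch, 5 of 18 Myc cofactors, 6 of 20 corepressor genes, 3 of 14 Mga complex genes and 5 of 35 ribosome-making targets. At 0.10, 10 turnover genes and 3 of the genes held down by Myc passed. The last list, with 1 call, had 1 higher and 1 lower with upper-quartile scaling or library size only. It had 2 higher with the DESeq2 Wald test, limma-voom with quality weights or the replicate block, and 3 higher with 1 surrogate variable. Without single libraries it had 1 to 2 calls, and the cause was not tested. Same-numbered libraries deviated together with r = 0.0386, 0.132, 0.228 and 0.0289, against -0.282 to 0.42 for the other pairs. Of the DR libraries only replicate 3 correlated best with its own number. So few libraries cannot settle whether replicate numbers pair them. With the replicate block the number of genes changed, DR against AL, was 6433, and 6 members passed. AL replicate 5 has no DR library of its number, so in that fit it does not inform the diet contrast. With AL replicate 5 left out instead, 6402 genes changed. Leaving out 1 DR library leaves 3, and Mxd3 in DR rests on 8 to 15 reads a library, so its fold is less precise than its direction.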
